A study of Mus musculus with 14 samples.

Results

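Wild-type mouse embryonic stem cells (ESC) and embryoid bodies (EB) grown from the same lines were compared. The members were the 6 arrays whose titles give WT ESC or WT EB, out of 14 in the series. Each stage had 1 array from each of the lines B21, J1 and R1, and the series text calls the arrays biological replicates. The title of the series concerns cell cycle exit and differentiation without the Rb gene family, and the other 8 arrays come from cells labelled TKO, of which 3 are ESC and 5 are EB, and they were not used here except in an alternative fit. Total RNA was measured on Affymetrix arrays. The age of the EB, the culture medium, the use of feeder cells and the origin of the lines are not given in the sources used here. Of 18193 genes with a probe set of their own, 13531 passed a filter on low values and were tested. Sets of 3 values are given in the order of lines B21, J1 and R1.

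ESC are the cultured counterpart of the early epiblast and can form every tissue of the embryo proper. They are held in this state by a network of transcription factors built around Pou5f1, Sox2 and Nanog. When they are released from the conditions that maintain this network and allowed to aggregate, they form EB, in which an outer endoderm surrounds cells that pass through mesoderm and ectoderm fates without the body plan of an embryo. An EB culture is therefore a mixture, and a change in a bulk RNA sample can come from a changed share of cells or from a changed level per cell, which cannot be told apart here. Undifferentiated ESC divide rapidly with a short G1 phase, and differentiation is known to lengthen the cycle. The pocket proteins of the Rb family restrain E2F factors and, in complexes with MuvB proteins, repress cell cycle genes in cells that leave the cycle.

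The values are array intensities on a linear scale. They ran from 0.729 to 25399.3 over the 6 arrays, and values under 32 were raised to 32 before log2 was taken, so a change that starts or ends under this floor is a minimum. The median intensity over all probe sets lay between 86.1 and 89.3 on the ESC arrays and between 92.0 and 107.9 on the EB arrays. Between 25.7% and 28.5% of probe sets were under the floor on each array. Defining markers followed the stage labels on every array. Pou5f1, Nanog, Sox2, Zfp42, Esrrb and Dppa5a were each lower on all EB arrays than on any ESC array, and their summed intensity ran from 58770 to 77798 in ESC and from 3341 to 4132 in EB. The ESC arrays were not alike in all respects. ESC B21 had less Tagln, Acta2, Krt8, Krt19 and Thbs1 than ESC J1 and ESC R1, and Thbs1, a matrix glycoprotein, read 74.4, 668 and 1778 in ESC. The 12 genes listed as markers of feeder fibroblasts had a summed intensity of 8584 to 9040 on the ESC arrays and of 102217 to 133971 on the EB arrays. Of the ESC sum, Fn1 (fibronectin) gave 7533 to 7905, and the other 11 genes read 430 or less on every ESC array. The part of feeder cells in the results was not tested.

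Differentiation went with a change in a large share of the genes measured. Of the 13531 genes, 4000 (29.6%) were higher in EB and 2686 (19.9%) lower, 49.4% in all, at an adjusted p under 0.05 from limma with Benjamini-Hochberg adjustment over all genes tested. Arrays of the stages did not overlap for 8412 genes (62.2%). At least 2-fold changes that also passed the test numbered 2863 higher (21.2%) and 1581 lower (11.7%), and at least 16-fold changes numbered 288 higher (2.13%) and 79 lower (0.584%). The balance of higher and lower calls depended on the scaling: with the values as deposited 59.8% of calls were higher in EB, with quantile normalization between the 6 arrays 42.7% (3036 higher and 4074 lower) and with each array centred on its median 34.5% (2492 and 4726). Among calls of at least 2-fold, 64.4% were higher in EB as deposited, 48.1% with quantile normalization (2221 higher and 2400 lower) and 40.1% with median centring (1974 and 2946). The median log2 change over all genes was 0.14 as deposited, -0.16 after quantile normalization and -0.32 after median centring, so neither the direction of changes of this size nor the excess of higher calls is settled. Without line J1, which leaves 2 arrays a stage, 2265 genes were higher and 1360 lower. Below, a change is the mean log2 value of EB minus that of ESC, 3 arrays each, followed by its standard error (SE), and each adjusted p of a gene comes from the same limma fit. Counts of list members that rose or fell are to be set against the 29.6% higher and 19.9% lower of all genes tested.

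**Figure D1:**
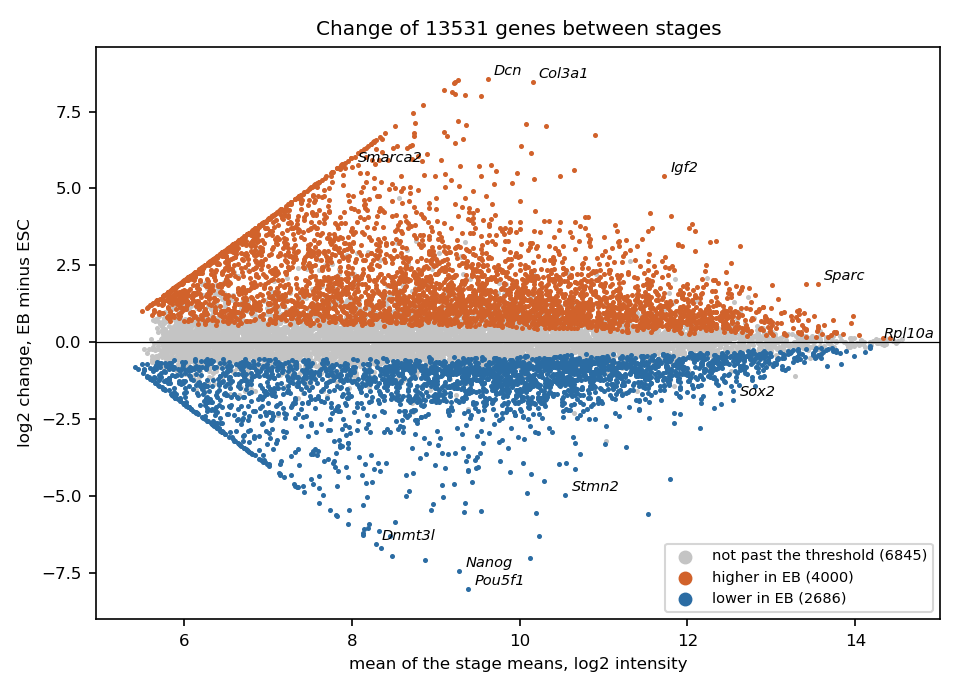
Each point is a gene tested. The horizontal axis is the mean of the 2 stage means as log2 intensity and the vertical axis the log2 change, EB minus ESC. Orange points passed the threshold higher in EB (4000), blue points lower (2686), and grey points did not pass. The straight edges on the left come from genes at the floor of 32 on all arrays of a stage.

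Some genes were measured at a single stage. With all arrays of a stage under the floor of 32 and all of the other above 8 times that floor, 111 of 18193 genes were measured in EB only and 22 in ESC only. The EB set was led by Afp, the albumin-like carrier of the fetal yolk sac and liver, by the lysozymes Lyz1 and Lyz2, of which Lyz2 is known from macrophages, by the collagen-binding proteoglycan Lum and by the basal keratin Krt15. Afp read 15211, 6873 and 15732 in EB of lines B21, J1 and R1 and 22.6, 7.1 and 5.1 in ESC, which makes it at least 215-fold higher in EB when the lowest EB array is set against the floor. Lum read 13.8, 25.4 and 30.0 in ESC and 11010, 12326 and 10168 in EB, at least 318-fold higher. EB J1 was the lowest EB array for Afp and the highest for Lum, and all EB arrays were far above all ESC arrays. The ESC set held pluripotency genes (Esrrb, Eras, Nr0b1) and genes known for their part in germ cells (Dnmt3l, Morc1, Tdrd12, Mael, Ddx4). Ddx4, a germ cell RNA helicase, read 855, 742 and 840.0 in ESC and 30.5, 4.2 and 12.8 in EB, at least 23.2-fold lower in EB.

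Most naive pluripotency factors fell, and Pou5f1 and Nanog were near the floor in EB of all 3 lines. Of 29 naive pluripotency factors tested, 25 fell and 0 rose, with a median change of -4.27. Pou5f1, the POU factor at the centre of the network, read 11681, 10972 and 9880 in ESC and 38.8, 32.8 and 55.2 in EB. It fell by 8.03 ± 0.24 (adjusted p = 1.49e-05), and no array of a stage came near the other. Nanog, a homeodomain factor, read 10947, 7894 and 6331 in ESC and 56.8, 33.6 and 54.8 in EB, and fell by 7.44 ± 0.30 (adjusted p = 3.76e-05). Zfp42 (Rex1), a zinc finger marker of the naive state, fell from 16141, 12232 and 10309 to 90.2, 61.1 and 176. Utf1, a chromatin protein of undifferentiated cells, fell by 7.07 ± 0.29 (adjusted p = 3.75e-05), and Esrrb, an orphan nuclear receptor, was under the floor in all EB and at least 77.2-fold lower.

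Sox2 fell less. This factor, which neural and other progenitors also use, read 12550, 12116 and 10070 in ESC and 3479, 3600 and 2378 in EB. It fell by 1.89 ± 0.18 (adjusted p = 0.000483), so that EB kept a clear signal. Of the other members, 4 did not pass the test: Klf4 (-0.28 ± 0.81, adjusted p = 0.787), Klf5 (0.13 ± 0.19, adjusted p = 0.595), Tbx3 (-1.42 ± 0.75, adjusted p = 0.154) and Sall4 (-3.22 ± 1.15, adjusted p = 0.0545). Sall4, a zinc finger factor of ESC and of early endoderm, differed between lines. It read 6313, 6776 and 6014 in ESC and 350.0, 178 and 5139 in EB, so EB R1 kept nearly the ESC level while EB B21 and EB J1 lost it. Fbxo15, an F-box protein of ESC, had the same shape at 9753, 5180 and 4203 in ESC and 165, 51.9 and 2136 in EB. Fbxo15 did not pass without the EB B21, ESC B21, ESC J1 or ESC R1 array or without line B21 or J1 (adjusted p = 0.0519 to 0.173). Klf4 was highest of all in EB R1, at 1583, 1100 and 8111 in EB against 5986, 2527 and 1686 in ESC. Pou5f1 and Nanog were no higher in EB R1 than 55.2 and 54.8.

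**Figure D2:**
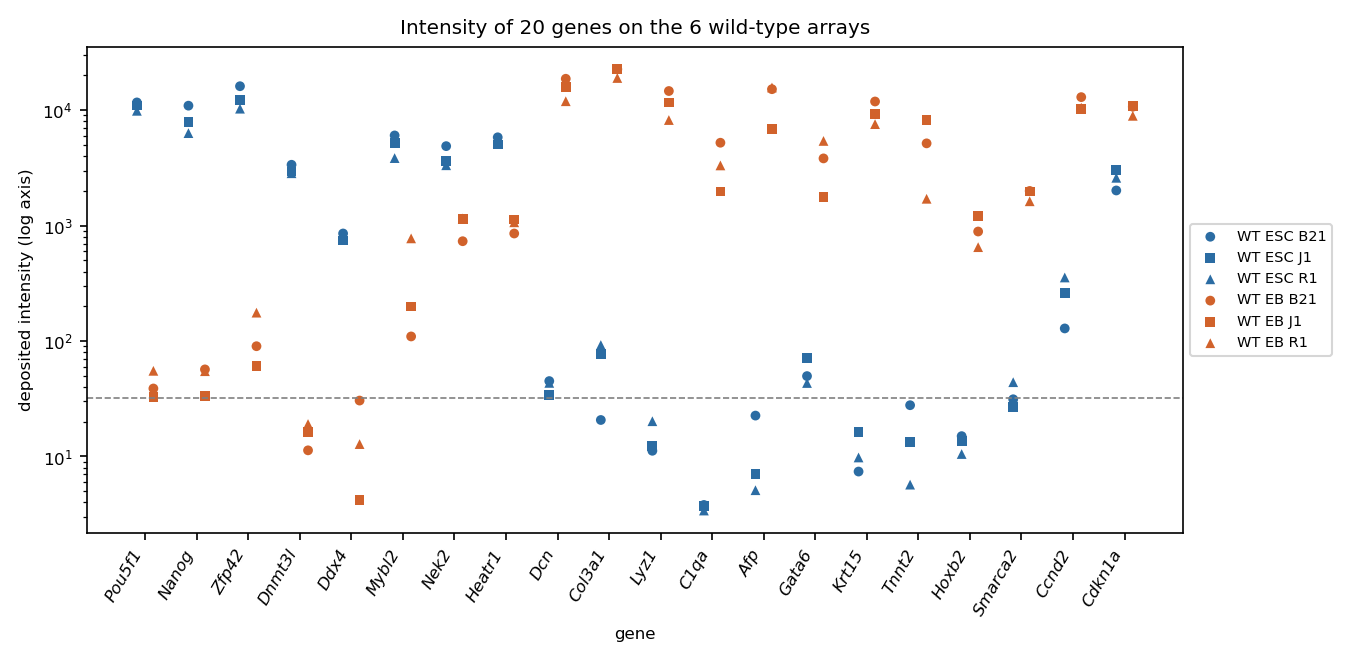
Intensity of 20 genes on the 6 wild-type arrays, on a log axis. Blue marks are ESC and orange marks EB, with circles for line B21, squares for J1 and triangles for R1, and the dashed line is the floor of 32. Pluripotency, germline, cell cycle and ribosome genes on the left are lower in EB. Matrix, macrophage, endoderm, keratin, heart, Hox, Smarca2, Ccnd2 and Cdkn1a on the right are higher. The 20 genes were chosen from these same data, so that the stages do not overlap for any of them is no test. Over all genes tested, the stages did not overlap for 62.2%.

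Genes of the formative and primed epiblast, the states that follow the naive one, were also lower. Of 17 tested, 11 fell and 2 rose, with a median of -2.34. Nodal, a TGF-beta ligand that keeps the epiblast from turning neural, read 2023, 2542 and 2369 in ESC and 27.4, 28 and 54 in EB. It fell by 5.92 ± 0.27 (adjusted p = 5.74e-05). Its feedback inhibitor Lefty2 and its co-receptor Tdgf1 (Cripto) fell with it: Lefty2 read 2212, 3856 and 1573 in ESC and 37, 19.9 and 40.4 in EB, and Tdgf1 fell by 6.29 ± 0.59 (adjusted p = 0.000455). Fgf4, the autocrine signal that pushes ESC towards commitment, fell by 6.21 ± 0.32 (adjusted p = 7.84e-05), and its transcriptional target Etv5 fell by 3.63 ± 0.20 (adjusted p = 8.93e-05). Otx2 and Pou3f1, which drive the formative state, fell by 3.84 ± 0.66 and 3.94 ± 0.56. The 2 members that rose were Dnmt3a and Sall2. Sall2 did not pass without the ESC J1 array or without line B21, J1 or R1 (adjusted p = 0.052 to 0.113). The Dnmt3a result rests on the choice of probe set: the set with the highest mean rose by 2.53, while another of its 5 sets fell by 1.51. Cdh1 (E-cadherin) read 7771, 8858 and 9091 in ESC and 9062, 8106 and 7195 in EB and did not pass the test (-0.08 ± 0.11, adjusted p = 0.569).

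ESC also carried transcripts known from germ cells, and most were lower in EB. Of 21 germline and meiosis genes tested, 17 fell and 0 rose, with a median of -3.34. Without line J1, 11 fell. Dnmt3l, the catalytically inactive partner of the de novo DNA methyltransferases, read 3367, 2947 and 2844 in ESC and 11.3, 16.2 and 19.1 in EB, at least 88.9-fold lower in EB. Morc1 and Tdrd12, which act in transposon silencing in the male germline, were at least 74.5-fold and at least 42.6-fold lower. Sycp3, a component of the axis of meiotic chromosomes, fell by 4.67 ± 0.53 (adjusted p = 0.00086). The members that did not pass included Rhox5 and Rhox6, homeobox genes of the X-linked Rhox cluster. Rhox5 read 5495, 2576 and 2314 in ESC and 2024, 264 and 11368 in EB, highest in EB R1 and lowest in EB J1.

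Genes of DNA methylation changed in both directions. Of 17 genes tested, 9 fell and 3 rose (52.9% and 17.6%, against 19.9% and 29.6% of all genes tested). Tet1, the dioxygenase that oxidises 5-methylcytosine in ESC, read 5868, 5364 and 4038 in ESC and 400.1, 708 and 509 in EB and fell by 3.26 ± 0.26 (adjusted p = 0.000252). Dnmt3b, a de novo methyltransferase of the epiblast, read 3476, 8867 and 9872 in ESC and 211, 256.3 and 1077 in EB, with less in ESC B21 than in the other ESC. Dppa3 (Stella), which protects the maternal genome from demethylation, fell by 5.84 ± 0.35 (adjusted p = 0.000117). Mbd2, a methyl-CpG binding protein, rose by 2.66 ± 0.17 (adjusted p = 0.000151). Dnmt1, the maintenance enzyme, did not pass the test (-0.65 ± 0.33, adjusted p = 0.148).

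Genes of mesenchymal cells and their matrix were among the largest rises. Of 31 proteoglycans and matricellular proteins tested, 28 rose and 0 fell, with a median change of 4.78. Of 23 collagen genes, 18 rose and 0 fell (median 3.87), and of 31 fibroblast and mesenchyme genes 29 rose and 0 fell (median 3.70). The median of all genes was 0.14. Dcn (decorin), a small proteoglycan that binds collagen fibrils, read 45, 34 and 43.4 in ESC and 18728, 15827 and 11962 in EB. It rose by 8.56 ± 0.23 (adjusted p = 1.39e-05), a 377-fold difference. Col3a1, a fibrillar collagen, read 20.7, 77.3 and 92.3 in ESC and 22643, 22720 and 19017 in EB, and its EB values were close to the upper end of the arrays. Col1a1, the main collagen of bone and skin, read 50.2, 146 and 191 in ESC and 15828, 15795 and 12460 in EB and rose by 7.03 ± 0.48 (adjusted p = 0.000169). Postn (periostin), a matricellular protein of connective tissue, rose from 15, 45.8 and 44.6 to 9046, 13417 and 9767. The 3 chains of collagen VI moved together: Col6a1, Col6a2 and Col6a3 changed by 6.47 ± 0.31, 6.61 ± 0.33 and 5.94 ± 0.30, and each was lowest in R1 among the EB.

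Enzymes that build and remodel matrix followed. Of 27 matrix enzymes and inhibitors tested, 24 rose and 0 fell, with a median of 2.49. Lox (lysyl oxidase), which cross-links collagen and elastin, read 25.2, 49.8 and 83.3 in ESC and 12075, 7438 and 4646 in EB and rose by 7.20 ± 0.46 (adjusted p = 0.000142). Among the EB it was highest in B21 and lowest in R1, and among the ESC the reverse. Timp2, an inhibitor of matrix metalloproteinases, rose by 4.07 ± 0.20 (adjusted p = 7.03e-05), and Mmp2, a gelatinase, rose by 2.88 ± 0.27 (adjusted p = 0.000458). Among mesenchymal receptors and adhesion molecules, Cdh11 (the cadherin of mesenchyme) read 11.2, 16.4 and 47.5 in ESC and 11781, 12371 and 6652 in EB, and Pdgfra, the PDGF receptor of early mesoderm and stroma, read 68.8, 59 and 33.9 in ESC and 5302, 3742 and 10127 in EB. Snai2 and Zeb2, repressors of epithelial genes, rose by 4.87 ± 0.38 (adjusted p = 0.000254) and by 3.83 ± 0.49 (adjusted p = 0.00135). Dlk1 and Igfbp5, which act on growth factor signalling, rose by 7.09 ± 0.43 (adjusted p = 0.000121) and by 8.0 ± 0.26 (adjusted p = 2.16e-05). Collagens that did not pass the test were Col2a1 and Col9a3, of cartilage, Col5a3, Col11a2 and Col18a1. Of 15 cartilage and bone genes, 6 rose and 2 fell, and 3 rose at a filter of the 60th percentile.

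**Figure D3:**
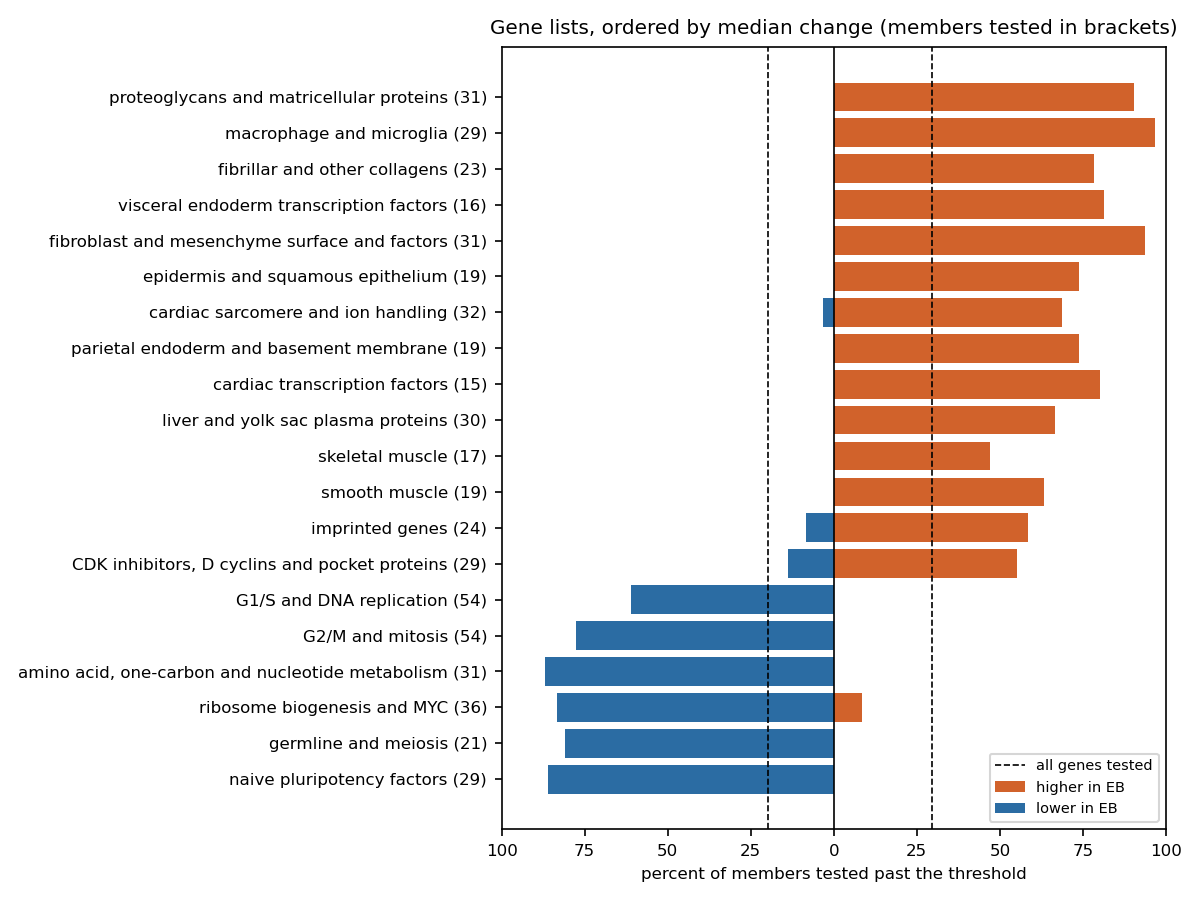
Gene lists ordered by their median change, with the number of members tested in brackets. Bars to the right give the percent of those members that passed the threshold higher in EB and bars to the left the percent that passed lower. Dashed lines mark the same for all genes tested, 29.6% higher and 19.9% lower. Matrix and macrophage lists lie at the upper end, and pluripotency, germline, ribosome and cell cycle lists at the lower end.

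Macrophage genes rose in EB. Of 29 tested, 28 rose and 0 fell (median 4.10), with Coro1a, an actin regulator of leukocytes, as the exception (0.79 ± 0.47, adjusted p = 0.208). Genes under the filter on all ESC arrays were tested only if above it on all EB arrays, which favours rises in this list. Lyz2, lysozyme of myeloid cells, read 23.1, 12.2 and 10.1 in ESC and 9341, 7161 and 4505 in EB, at least 141-fold higher. C1qa, a chain of the complement starter C1q, read 3.8, 3.7 and 3.4 in ESC and 5227, 1977 and 3323 in EB, at least 61.8-fold higher. Csf1r, the receptor that macrophages need to survive, read 43.7, 30.8 and 31.4 in ESC and 5186, 1290 and 3138 in EB and rose by 6.28 ± 0.50 (adjusted p = 0.00026). Ptprc (CD45), found on nucleated blood cells, read 7.9, 9.1 and 5.2 in ESC and 588, 255 and 350.2 in EB. EB J1 was the lowest EB array for C1qa, Csf1r and Ptprc, while Lyz2 was lowest in EB R1. Chemokines Pf4 and Ppbp, known from platelets and also found in macrophages, rose by 6.04 ± 0.48 (adjusted p = 0.000268) and by 4.04 ± 0.41 (adjusted p = 0.000586).

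Lysosome and complement genes moved in the same direction. Of 35 lysosome and autophagy genes, 24 rose and 2 fell (median 0.97). These were 68.6% and 5.71%, against 29.6% and 19.9% of all genes tested. With median centring 13 rose. Ctss (cathepsin S), a protease of antigen-presenting cells, read 3.1, 4.7 and 23.6 in ESC and 3621, 1773 and 2934 in EB, at least 55.4-fold higher. Lamp2, a membrane protein of lysosomes in all cells, rose by 2.45 ± 0.15 (adjusted p = 0.000128), and the general lysosomal proteases Ctsb and Ctsd rose by 1.71 ± 0.15 (adjusted p = 0.000392) and by 1.66 ± 0.17 (adjusted p = 0.00057). Of 16 complement and acute phase genes, 12 rose and 0 fell (median 2.99). Clu (clusterin), a secreted chaperone, read 1237, 1206 and 2680 in ESC and 19676, 15156 and 11883 in EB, and Serping1, the C1 inhibitor, rose by 3.70 ± 0.41 (adjusted p = 0.000834).

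Genes of yolk sac endoderm rose, to a higher level in some lines than in others. Of 16 visceral endoderm transcription factors tested, 13 rose and 0 fell (median 3.81), and of 30 plasma proteins of liver and yolk sac 20 rose and 0 fell (median 2.73). Without line B21, 8 of the factors rose. Of 39 plasma protein genes on the array, 9 did not pass the filter, Apob among them at 491, 41.7 and 441 in EB. Of 19 factors on the array, 3 did not pass it. A gene under the filter on all ESC arrays was tested only if above it on all EB arrays, which favours rises. Gata6, the GATA factor that starts primitive endoderm, read 49.7, 71 and 43.3 in ESC and 3823, 1766 and 5417 in EB and rose by 5.96 ± 0.43 (adjusted p = 0.000205). Foxa1 and Hnf4a, which open and drive liver-type genes, rose by 6.39 ± 0.35 (adjusted p = 8.63e-05) and by 3.91 ± 0.33 (adjusted p = 0.000325). Ttr (transthyretin), a carrier of thyroid hormone, read 7.7, 41.1 and 15.6 in ESC and 10794, 7226 and 12433 in EB. Afp and Ttr were high in all EB, with EB J1 lowest.

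Other endoderm genes differed by far more between the lines. Sox17, a factor of endoderm, read 66.7, 63.4 and 37 in ESC and 2016, 275 and 9814 in EB of lines B21, J1 and R1, and rose by 5.03 ± 1.18 (adjusted p = 0.0128). Gata4 read 23.6, 48.3 and 55 in ESC and 535, 275 and 4299 in EB and rose by 4.29 ± 0.95 (adjusted p = 0.0104). EB R1 was highest and EB J1 lowest for both, and EB J1 was still above every ESC array. Sox17 did not pass without line B21 (adjusted p = 0.0911). Gata4 did not pass without line B21 (adjusted p = 0.0688). Apoa1, the main protein of high density lipoprotein, read 88.4, 73.7 and 80.9 in ESC and 4620, 457 and 3002 in EB. Cubn (cubilin), the receptor by which visceral endoderm takes up protein, read 132, 246 and 29.4 in ESC and 637, 77.2 and 2946 in EB and did not pass the test (2.38 ± 1.36, adjusted p = 0.188). Its level in EB J1 lay within the ESC values.

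Parietal endoderm and basement membrane genes had the same order of lines. Of 19 tested, 14 rose and 0 fell (median 2.86). Without line B21, 6 rose, and with no filter 9. The median change per line was 2.53 in B21, 2.04 in J1 and 3.99 in R1. Col4a1, a chain of the common type IV collagen, read 926, 1057 and 1450 in ESC and 16574, 11144 and 23112 in EB. Its partner chain Col4a2 read 481, 774 and 934 in ESC and 12533, 8028 and 20870 in EB. Sparc, a collagen-binding glycoprotein made in bulk by parietal endoderm and stroma, rose from 6342, 5206 and 7383 to 23852, 21441 and 24188. Plat, a plasminogen activator, rose by 5.74 ± 0.47 (adjusted p = 0.000288). Lama1, a laminin chain of early basement membranes, read 1085, 663 and 479 in ESC and 4402, 463 and 18176 in EB and did not pass (2.25 ± 1.22, adjusted p = 0.167). EB J1 was below every ESC array and EB R1 above all.

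Muscle genes of the heart rose in EB. Of 15 cardiac transcription factors tested, 12 rose and 0 fell (median 2.78), and of 32 sarcomere and ion handling genes 22 rose and 1 fell (median 2.94). By line, the medians in B21, J1 and R1 were 2.99, 2.88 and 1.49 for the transcription factors and 3.11, 3.57 and 1.88 for the sarcomere and ion handling genes. Of the latter, 11 rose without line B21 and 12 without line J1, and 12 rose when only genes above the 60th percentile were tested. Tnnt2 (cardiac troponin T), which ties contraction to calcium, read 27.8, 13.4 and 5.7 in ESC and 5162, 8172 and 1708 in EB, at least 53.4-fold higher. Actc1 (cardiac actin) read 57.6, 83.9 and 307 in ESC and 12872, 17755 and 3667 in EB and rose by 6.37 ± 0.79 (adjusted p = 0.00118). Myh7, a myosin heavy chain of slow and fetal heart muscle, rose by 4.74 ± 0.44 (adjusted p = 0.000449). Myh6, another marker of heart muscle, read 342, 200 and 330 in ESC and 3185, 2548 and 445 in EB. It rose by 2.44 (adjusted p = 0.0311), with EB R1 near the ESC values. Among the EB, Tnnt2 and Actc1 were highest in J1 and lowest in R1, as was the skeletal muscle gene Myog. Whether part of this signal came from skeletal muscle was not tested. Hand2 and Tbx20, factors of the early heart, rose by 5.42 ± 0.33 (adjusted p = 0.00013) and by 3.64 ± 0.28 (adjusted p = 0.000243). Nkx2-5, a defining factor of heart muscle, read 63.9, 74.7 and 81.1 in ESC and 118, 192 and 63.3 in EB and did not pass (0.63 ± 0.40, adjusted p = 0.234). The gene that fell was Kcnj3, a potassium channel subunit, at 55.8, 282 and 521 in ESC and 17, 18.6 and 2.4 in EB. Kcnj3 did not pass without the EB B21, EB J1, ESC J1, EB R1 or ESC R1 array or without line J1 or R1 (adjusted p = 0.0599 to 0.157).

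Smooth muscle genes rose in part. Of 19 tested, 12 rose (63.2%, against 29.6% of all genes tested) and 0 fell (median 1.70), and 5 rose without line J1. Mylk, the kinase that starts smooth muscle contraction, read 29.5, 8.6 and 19.4 in ESC and 5092, 2090 and 2477 in EB, at least 65.3-fold higher. Actg2 and Myl9, contractile proteins of smooth muscle, rose by 6.32 ± 0.49 (adjusted p = 0.000243) and by 3.77 ± 0.52 (adjusted p = 0.00182). Tagln (SM22), an early marker of smooth muscle, read 338, 2687 and 6488 in ESC and 5991, 8974 and 8081 in EB and did not pass (2.07 ± 0.99, adjusted p = 0.124). ESC R1 was above EB B21 for it. Acta2 (smooth muscle actin) had the same order in ESC, 242, 1021 and 2616, below EB values of 12068, 17941 and 15133. Acta2 did not pass without line J1 (adjusted p = 0.0588). Cnn1, another marker of smooth muscle, read 84.5, 239.8 and 751.3 in ESC and 116.9, 424.4 and 269.7 in EB. Cnn1 did not pass (-0.06, adjusted p = 0.960), and ESC R1 was above every EB array for it. Myh11 read 28.5, 34.9 and 18.3 in ESC and 163.5, 132.8 and 218.5 in EB and rose by 2.35 (adjusted p = 0.000545).

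Skeletal muscle genes were mainly a matter of lines J1 and B21. Of 17 tested, 8 rose (47.1%, against 29.6% of all genes tested) and 0 fell. The median change was 2.54 in B21, 3.75 in J1 and 0.24 in R1. Myog (myogenin), which drives the fusion of myoblasts, read 816, 5464 and 117 in EB of lines B21, J1 and R1 and 22.7, 16.9 and 30.0 in ESC. Myl1, a myosin light chain of fast fibres, read 18.2, 21.4 and 30.8 in ESC and 3586, 6258 and 194 in EB. Myod1, the master regulator of the lineage, was not tested as too few arrays were above the filter, and read 14.2, 33.8 and 26 in ESC and 215, 1855 and 54.9 in EB. EB J1 was the highest array for all 3 genes and EB R1 the lowest EB array. The count of 8 became 15 without the EB R1 array, 5 without EB J1, 4 without ESC R1, 2 without EB B21, ESC B21 or ESC J1, and 1 without line B21 or line J1. With a floor of 64, a filter at the 60th percentile or all 14 arrays it was 4, and with no filter 2.

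Many smooth and cardiac muscle genes are known to carry the CArG box, an element bound by serum response factor. In RefSeq promoter windows of build GRCm38.p6, from 250 bases before to 50 after each start, it was in 5 of 20 windows of the smooth muscle list (25%) and 7 of 46 of the cardiac sarcomere list (15.2%), against 1.63% of all 32851 windows and 1.33% of those of genes tested. The stretches below, each of 90 bases from within the 250 before the start and written 5′ to 3′ on the gene's strand, show the box in capitals for members that rose, chosen after their values were seen. The box begins 47 bases before the start in Actc1, 161 in Myl9, 31 in Fhl2 and 85 in Myl3.
Actc1, chr2:114052898-114052987, minus strand: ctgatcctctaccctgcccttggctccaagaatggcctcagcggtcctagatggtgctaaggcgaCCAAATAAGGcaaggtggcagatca
Myl9, chr2:156775238-156775327, plus strand: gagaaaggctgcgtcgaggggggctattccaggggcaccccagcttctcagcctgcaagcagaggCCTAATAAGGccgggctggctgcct
Fhl2, chr1:43163968-43164057, minus strand: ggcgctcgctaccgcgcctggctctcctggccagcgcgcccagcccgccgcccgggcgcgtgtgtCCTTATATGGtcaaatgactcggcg
Myl3, chr9:110763528-110763617, plus strand: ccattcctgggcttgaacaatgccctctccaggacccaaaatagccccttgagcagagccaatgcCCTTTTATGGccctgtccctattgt
Fhl2, a LIM-domain partner of muscle transcription factors, rose by 3.89 ± 0.38 (adjusted p = 0.000514). Myl3, a light chain of slow and ventricular myosin, read 98.9, 117 and 103 in ESC and 2158, 371 and 4743 in EB, so that EB J1 was lowest for it while highest for Actc1 and Myl9. Myl3 did not pass without line B21 (adjusted p = 0.0921). A match describes the letters and does not show that the factor was bound.

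Genes of stratified epithelium rose in EB. Of 19 epidermal and squamous genes tested, 14 rose and 0 fell (median 2.95). Krt15, a keratin of basal epidermal cells, read 7.4, 16.2 and 9.8 in ESC and 11899, 9241 and 7575 in EB, at least 237-fold higher. Krt5 read 18.6, 27.3 and 27.4 in ESC and 2207, 1849 and 1487 in EB. Krt14, with which it pairs in basal keratinocytes, read 105, 128 and 149 in ESC and 2893, 2970 and 2765 in EB. Trp63 (p63), the factor that sets up stratified epithelium, read 26.7, 23.7 and 18.9 in ESC and 671, 518 and 487 in EB, at least 15.2-fold higher. For each of these 4 genes the EB arrays were within a factor of 2 of each other. Upk1b, a membrane protein of the bladder lining, read 20, 1 and 1.1 in ESC and 10691, 3968 and 4134 in EB, at least 124-fold higher.

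Genes of simple epithelium were less clear. Of 22 tested, 5 rose and 2 fell (22.7% and 9.09%, below the 29.6% and 19.9% of all genes tested). Without the EB B21 or the ESC J1 array, or without line B21 or J1, 3 rose, and 3 also rose with no filter on low values or with all 14 arrays in the fit. Krt19 read 419.7, 1291 and 3732 in ESC and 14473, 12521 and 8138 in EB, with a wide spread in ESC. Krt19 did not pass without line J1 (adjusted p = 0.0921). Krt8, its partner in early epithelia, read 585, 3697 and 5943 in ESC and 10209, 8090 and 11652 in EB and did not pass (2.08 ± 0.80, adjusted p = 0.0687). ESC R1 was highest and ESC B21 lowest for both. Epcam, an adhesion protein of ESC and of epithelia, read 3167, 6056 and 6024 in ESC and 4972, 4315 and 5004 in EB and did not pass (-0.04 ± 0.26, adjusted p = 0.921).

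Vascular and blood genes gave a mixed picture. Of 23 endothelial genes tested, 9 rose and 2 fell (39.1% and 8.70%, against 29.6% and 19.9% of all genes tested). Without the ESC J1 array 5 rose, without line J1 4 rose, and with no filter or a filter at the 60th percentile 5 rose. Cdh5 (VE-cadherin), the cadherin of endothelial junctions, read 13.8, 18.1 and 18 in ESC and 768, 774 and 2459 in EB and rose by 5.15 ± 0.46 (adjusted p = 0.000392). Kdr, the VEGF receptor of vascular progenitors, rose by 2.39 ± 0.26 (adjusted p = 0.000714). Pecam1, which marks endothelium but is also made by ESC, read 1485, 568 and 225 in ESC and 69.8, 203 and 35.8 in EB, lower in EB. Pecam1 did not pass without the EB B21, ESC B21, ESC J1 or EB R1 array or without line B21 or J1 (adjusted p = 0.0586 to 0.171). Tie1 was under the filter and no higher than 55.8. The embryonic globins Hba-x, Hbb-bh1 and Hbb-y were under the filter too: Hba-x read 25.8, 23.1 and 17.3 in ESC and 25.6, 397 and 188 in EB, so that EB J1 had the most and EB B21 none above the ESC values. Of 7 erythroid genes tested, 2 rose (Lmo2 and Fech) and 1 fell (Klf1). These shares, 28.6% and 14.3%, were near those of all genes tested. Fech did not pass without line B21 or J1 (adjusted p = 0.0583 to 0.0691). Klf1 did not pass without the ESC J1 or ESC R1 array or without line B21, J1 or R1 (adjusted p = 0.0508 to 0.0893).

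Neural genes did not move as a group. Of 19 genes of postmitotic neurons, 4 rose and 4 fell (21.1% each, against 29.6% and 19.9% of all genes tested). Their median change was -0.50, with -1.03 in B21, 1.09 in J1 and -0.88 in R1. Without line B21, 1 rose, and with no filter or a filter at the 60th percentile 2 rose. Stmn2, a tubulin-binding protein of growing neurites, was high in ESC: it read 7972, 9036 and 8132 in ESC and 119, 795 and 202 in EB and fell by 4.97 ± 0.64 (adjusted p = 0.0014). Tubb3, a neuronal tubulin, read 1541, 811 and 1058 in ESC and 109, 1186 and 284 in EB, with EB J1 at the ESC level and EB B21 lowest. Of 13 genes of neural progenitors, 4 rose (30.8%, near the 29.6% of all genes tested) and 1 fell. Fabp7, a fatty acid binding protein of radial glia, rose by 5.78 ± 0.47 (adjusted p = 0.000285), and Zic1, a factor of the dorsal neural tube and of somites, rose by 5.22 ± 0.36 (adjusted p = 0.000172). Pax6 did not pass (-0.27 ± 0.45, adjusted p = 0.643).

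Genes of the primitive streak and early mesoderm rose in part, and 8 of the 19 on the array did not pass the filter. Of 11 tested from the list of primitive streak and early mesoderm, 5 rose (45.5%, against 29.6% of all genes tested) and 0 fell. Those that rose were Pdgfra, Foxf1, Kdr, Isl1 and Bmp4. Mixl1, Mesp1, Eomes and Tbx6, which act in the streak and in the mesoderm that leaves it, did not pass, and Gsc, Evx1 and Msgn1 stayed under the filter with no value above 51.1. Of 10 trophoblast genes, 3 rose and 3 fell, so the share that rose (30.0%) was near that of all genes tested (29.6%). Cdx2, which specifies that lineage, read 96.2, 129 and 116 in ESC and 175, 78.7 and 203 in EB.

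Hox genes rose in part. Of 31 Hox genes on the array, 18 passed the filter, and of these 10 rose and 1 fell (median 1.53). The shares were 55.6% and 5.56%, against 29.6% and 19.9% of all genes tested. At a filter of the 60th percentile 5 rose. Hoxb2 read 15, 13.7 and 10.5 in ESC and 889, 1207 and 651 in EB, at least 20.3-fold higher. Hoxb3, Hoxb4 and Hoxa3, of the same anterior groups, rose by 4.13 ± 0.32, 2.97 ± 0.20 and 3.44 ± 0.27. These genes, which set position along the trunk and hindbrain, were low in every ESC. Hoxa10, Hoxa11 and Hoxc8, of more posterior groups, rose by 1.88 ± 0.31, 1.52 ± 0.25 and 2.92 ± 0.65. Hoxc8 did not pass without line R1 (adjusted p = 0.0633). The gene that fell was Hoxa5, whose brighter probe set fell by 1.46 while its other set rose by 3.04, so its direction is not settled. Hoxa13 and Hoxb13 did not pass the filter, and Hoxd13 did not pass the test (0.69 ± 0.31, adjusted p = 0.102). Cofactors and retinoic acid genes moved with them: of 20 tested, 15 rose and 1 fell (median 2.70). Meis1 and Meis2, which bind DNA with Hox proteins, rose by 5.75 ± 0.36 (adjusted p = 0.000133) and by 5.93 ± 0.46 (adjusted p = 0.000243). Rarb, a retinoic acid receptor and target, rose by 4.49 ± 0.35 (adjusted p = 0.000243).

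Signalling genes changed in both directions. Of 41 BMP and TGF-beta genes, 27 rose and 6 fell (65.9% and 14.6%, against 29.6% and 19.9% of all genes tested). Those that fell included the ligands Nodal, Gdf3, Lefty1 and Lefty2 and the co-receptor Tdgf1. Tgfbr2, the receptor of TGF-beta itself, read 68.4, 154 and 173 in ESC and 6061, 5667 and 5731 in EB and rose by 5.58 ± 0.36 (adjusted p = 0.000142). Tgfb3 rose by 5.04 ± 0.42 (adjusted p = 0.000313), and Bmp5 rose by 3.15 ± 0.27 (adjusted p = 0.000326). Of 36 Wnt genes, 20 rose and 1 fell (55.6% and 2.78%, against 29.6% and 19.9%). Without line B21 13 rose, and without line J1 12 did. Dkk2, a modulator of Wnt receptors, read 2.8, 4.9 and 6.3 in ESC and 1444, 836 and 1365 in EB, at least 26.1-fold higher. Wnt5a, a ligand of the non-canonical pathway, rose by 4.25 ± 0.54 (adjusted p = 0.0013), and the receptor Fzd1 rose by 5.39 ± 0.50 (adjusted p = 0.00043). Of 33 FGF and receptor tyrosine kinase genes, 12 rose and 6 fell (36.4% and 18.2%), near the 29.6% and 19.9% of all genes tested.

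The ligands that fell were those of the early epiblast (Fgf4, Fgf5, Fgf15, Fgf17), with Etv4 and Etv5. Fgf5 did not pass without the EB B21, EB J1, ESC J1, EB R1 or ESC R1 array or without line J1 or R1 (adjusted p = 0.0627 to 0.173). Igf1, a growth factor of stroma and macrophages, read 9.6, 30.8 and 22.3 in ESC and 2996, 4617 and 869 in EB, at least 27.2-fold higher, and Vegfa rose by 2.52 ± 0.23 (adjusted p = 0.0004). Of 28 Notch and Hedgehog genes, 10 rose and 5 fell (35.7% and 17.9%), near the shares of all genes tested, and between 4 and 6 rose when any of the ESC B21, EB B21, ESC J1 or EB J1 arrays or of these lines was left out. Gas1, a Hedgehog co-receptor that also arrests growth, read 88.8, 175 and 217 in ESC and 9750, 7774 and 4026 in EB and rose by 5.49 ± 0.44 (adjusted p = 0.000279). Shh rose by 2.82 ± 0.21 (adjusted p = 0.000228). Its target Ptch1 did not pass (-0.40 ± 0.24, adjusted p = 0.211).

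Cell cycle genes were lower in EB. Of 54 genes of G1/S and DNA replication tested, 33 fell and 0 rose (median -1.16), and of 54 of G2/M and mitosis 42 fell and 0 rose (median -1.22). The shares that fell were 61.1% and 77.8%, against 19.9% of all genes tested. Without the ESC J1 array the counts were 18 and 22. Without the ESC R1 array 27 G2/M genes fell, without line J1 16 did, and without line R1 18 of the G1/S genes fell. With no filter on low values the counts were 19 and 25. Line B21 had the largest median change, -1.81 for G1/S genes against -0.70 in J1 and -0.89 in R1. For G2/M genes it was -1.82 against -1.03 and -0.95. Msh6, a mismatch repair protein, read 10039, 9422 and 7953 in ESC and 1711, 2696 and 2703 in EB and fell by 1.97 ± 0.20 (adjusted p = 0.000624). In the complex that marks origins, Orc1 fell by 3.04 ± 0.43 (adjusted p = 0.00197) and Orc2 fell by 2.00 ± 0.26 (adjusted p = 0.00146). Mybl2 (B-Myb), which joins MuvB to switch on mitotic genes, had the largest fall of the list: it read 6044, 5231 and 3847 in ESC and 109.6, 199 and 775 in EB and fell by 4.27 ± 0.67 (adjusted p = 0.00285).

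Nek2, a kinase of the centrosome, read 4883, 3630 and 3335 in ESC and 733, 1139 and 1155 in EB. Cenpf, a protein of the kinetochore, read 4114, 3600 and 3549 in ESC and 724, 1272 and 1170 in EB. Bub1b, a spindle checkpoint kinase, fell by 1.72 ± 0.25 (adjusted p = 0.00215). EB B21 was the lowest array for each of the 3. Genes that did not pass included Pcna, the sliding clamp (-0.42 ± 0.19, adjusted p = 0.111), and Cdc6, a licensing factor, at 3324, 2460 and 2640 in ESC and 453, 1732 and 2124 in EB. Mki67, whose protein marks cycling cells, read 2686, 4264 and 4581 in ESC and 2102, 4322 and 3833 in EB and did not pass (-0.20 ± 0.32, adjusted p = 0.638). Birc5 (survivin) read 4694, 4369 and 4824 in ESC and 1207, 3780 and 3922 in EB, so that EB B21 was low and the other EB were near the ESC level.

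The promoters of these lists differ in their letters. The E2F site, searched as TTTCCCGC or TTTGGCGC on both strands, was in 15 of 53 windows of the G1/S list (28.3%) and 2 of 47 of the G2/M list (4.26%), against 1.56% of all 32851 windows and 2.76% of those of genes tested. The cell cycle genes homology region (CHR), searched as TTTGAA on both strands, was in 36 of 47 windows of the G2/M list (76.6%) and 6 of 53 of the G1/S list (11.3%), against 17.9% of all windows and 12.1% of those of genes tested. Among genes lower in EB the shares were 4.36% for the E2F letters and 14.6% for the CHR, and among genes higher in EB 1.89% and 10.3%. The stretches below, each of 90 bases from within the 250 before the start, on the gene's strand in GRCm38.p6, show the matches, in either orientation, in capitals in members that fell, chosen after their values were seen. The first pair carries E2F letters and the other 4 the CHR.
Mcm5, chr8:75109293-75109382, plus strand: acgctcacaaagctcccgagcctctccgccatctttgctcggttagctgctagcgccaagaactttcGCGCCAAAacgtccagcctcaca
Mcm6, chr1:128359730-128359819, minus strand: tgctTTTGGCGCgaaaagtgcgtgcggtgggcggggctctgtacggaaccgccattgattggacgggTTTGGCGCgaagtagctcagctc
Cdk1, chr10:69352913-69353002, minus strand: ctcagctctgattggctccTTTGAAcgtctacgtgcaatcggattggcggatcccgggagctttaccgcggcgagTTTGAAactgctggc
Cdca5, chr19:6085007-6085096, plus strand: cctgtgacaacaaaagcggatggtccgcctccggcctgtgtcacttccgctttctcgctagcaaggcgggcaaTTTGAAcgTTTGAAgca
Cdc20, chr4:118437344-118437433, minus strand: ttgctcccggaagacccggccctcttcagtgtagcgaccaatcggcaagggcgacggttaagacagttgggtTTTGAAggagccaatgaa
Ube2c, chr2:164769831-164769920, plus strand: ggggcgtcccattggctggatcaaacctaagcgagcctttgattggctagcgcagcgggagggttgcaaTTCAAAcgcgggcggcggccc
Mcm6 has 2 E2F matches in this stretch, and Cdk1 and Cdca5 have 2 CHR matches each. The match nearest the start begins 149 bases before it in Mcm5, 47 in Mcm6, 15 in Cdk1, 9 in Cdca5, 18 in Cdc20 and 29 in Ube2c. Mcm5, a subunit of the replicative helicase, read 9962, 9700 and 8984 in ESC and 3061, 6709 and 4939 in EB. Mcm6, of the same helicase, read 13532, 12158 and 10710 in ESC and 4832, 9185 and 6525 in EB. Cdk1, the kinase that drives entry into mitosis, read 8824, 9352 and 9462 in ESC and 4843, 7491 and 7471 in EB. Among the EB, B21 was the lowest for each of these. Cdca5 (sororin), which locks sister chromatids together, read 3101, 4164 and 4535 in ESC and 685, 1189 and 1376 in EB. Cdc20, an activator of the anaphase-promoting complex, read 9410, 12358 and 12646 in ESC and 3416, 6146 and 6491 in EB. Ube2c, a ubiquitin-conjugating enzyme of that complex, read 7367, 8855 and 7772 in ESC and 2113, 4947 and 5468 in EB. Each of the 6 was lowest in EB B21. No EB array reached an ESC array for them, but the stages did not overlap, in either direction, for 62.2% of all genes tested. Mcm5 did not pass without the ESC B21 or ESC J1 array or without line R1 (adjusted p = 0.0529 to 0.0787). Mcm6 did not pass without the ESC B21 or ESC J1 array or without line B21 or R1 (adjusted p = 0.0611 to 0.0858). Cdk1 did not pass without the ESC B21, ESC J1 or ESC R1 array or without line J1 or R1 (adjusted p = 0.0897 to 0.127). Cdc20 did not pass without line J1 (adjusted p = 0.0639). Ube2c did not pass without the ESC B21, ESC J1 or ESC R1 array or without line J1 or R1 (adjusted p = 0.0679 to 0.129).

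Several inhibitors and G1 regulators rose. Of 29 CDK inhibitors, D cyclins, pocket proteins and partners tested, 16 rose and 4 fell (median 0.94). These were 55.2% and 13.8%, against 29.6% and 19.9% of all genes tested. Without line J1, 10 rose. Ccnd2 (cyclin D2) read 129, 262 and 355 in ESC and 12983, 10229 and 10518 in EB and rose by 5.61 ± 0.37 (adjusted p = 0.000153). Cdkn1a (p21), an inhibitor that p53 and differentiation induce, read 2017, 3024 and 2596 in ESC and 10720, 10930 and 8938 in EB and rose by 2.02 ± 0.17 (adjusted p = 0.000319). Cdkn2b (p15), an inhibitor of the D cyclin kinases, rose by 3.47 ± 0.41 (adjusted p = 0.000971), and Btg2, an antiproliferative p53 target, rose by 1.36 ± 0.16 (adjusted p = 0.000884). The 4 that fell were E2f4, E2f5, Lin9 and Tfdp2. E2f4 did not pass without line J1 (adjusted p = 0.0614). E2f5 did not pass without line J1 (adjusted p = 0.0852). Lin9 did not pass without the ESC B21 or ESC J1 array or without line B21, J1 or R1 (adjusted p = 0.054 to 0.0906). Tfdp2 did not pass without the ESC B21, EB J1, ESC J1, EB R1 or ESC R1 array or without line J1 or R1 (adjusted p = 0.0616 to 0.265). With line as a block, Lin9 and Tfdp2 did not pass (adjusted p = 0.0619 and 0.0744).

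The 3 genes of the Rb family were measured on all arrays. Rb1 read 636, 138 and 791 in ESC and 1018, 407 and 686 in EB, with ESC J1 and EB J1 the lowest of their stage, and did not pass (0.68 ± 0.70, adjusted p = 0.447). Rbl1 (p107) read 694, 462 and 356 in ESC and 586, 1090 and 493 in EB (0.49 ± 0.38, adjusted p = 0.317). Rbl2 (p130), the member known to build up in resting cells, read 661, 562 and 411 in ESC and 1727, 1684 and 723 in EB and rose by 1.26 ± 0.38 (adjusted p = 0.0323). All EB arrays were above all ESC arrays for Rbl2, and the stages did not overlap, in either direction, for 62.2% of all genes tested. Rbl2 did not pass without the EB B21, EB J1, ESC J1 or ESC R1 array or without line B21 or J1 (adjusted p = 0.0825 to 0.181). With quantile normalization it did not pass either (adjusted p = 0.0605).

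Chromatin complexes changed in both directions. Of 45 Polycomb, BAF and histone modifier genes tested, 10 rose and 17 fell (22.2% and 37.8%, against 29.6% and 19.9% of all genes tested). With median centring 27 fell. Without line J1, 10 fell. Smarca2 (Brm), an ATPase of the BAF complex found in differentiated cells, read 31.3, 26.7 and 44 in ESC and 1998, 1977 and 1626 in EB and rose by 5.71 ± 0.22 (adjusted p = 3.21e-05). The other ATPase, Smarca4 (Brg1), did not pass (-0.20 ± 0.13, adjusted p = 0.247). Among Polycomb group members, Bmi1 read 225, 181 and 182 in ESC and 1238, 1408 and 1198 in EB and rose by 2.72 ± 0.19 (adjusted p = 0.00017), while Cbx7, the chromobox protein of ESC, read 1764, 2369 and 1880 in ESC and 163, 89.1 and 290.1 in EB and fell by 3.62 ± 0.42 (adjusted p = 0.000954). Of the proteins that direct Polycomb complex 2 in ESC, Jarid2 fell by 2.11 ± 0.16 (adjusted p = 0.000224) and Mtf2 fell by 1.64 ± 0.15 (adjusted p = 0.000448). Pcgf6, of a variant Polycomb complex 1, fell by 1.72 ± 0.17 (adjusted p = 0.000535). Eed, a core subunit of complex 2, fell by 1.11 ± 0.15 (adjusted p = 0.00152). Kdm6b, which removes the Polycomb mark, rose by 1.68 ± 0.17 (adjusted p = 0.00062).

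Imprinted genes of growth control rose in part. Of 24 tested, 14 rose and 2 fell (median 1.37). These were 58.3% and 8.33%, against 29.6% and 19.9% of all genes tested. Igf2, a fetal growth factor made from the paternal allele, read 131, 1674 and 639.6 in ESC and 22737, 21857 and 21206 in EB and rose by 5.40 ± 0.83 (adjusted p = 0.0026). ESC B21 was the lowest and ESC J1 the highest of the ESC, and the EB were alike and near the upper end of the arrays. Dlk1 read 51.7, 92 and 167 in ESC and 16133, 10817 and 11448 in EB. Cdkn1c (p57), an inhibitor made from the maternal allele, read 286, 1076 and 1421 in ESC and 6182, 6137 and 6908 in EB. Mest and Ndn rose by 2.51 ± 0.21 (adjusted p = 0.000323) and by 2.35 ± 0.19 (adjusted p = 0.000262). Those that fell were Ascl2 and Phlda2, which act in the placenta: Ascl2 fell by 2.31 ± 0.22 (adjusted p = 0.00048), and Phlda2 read 3718, 3604 and 5069 in ESC and 147, 133 and 1035 in EB. Phlda2 did not pass without line B21 or J1 (adjusted p = 0.0572 to 0.0601). Meg3, the maternal non-coding RNA of the Dlk1 region, did not pass (0.78 ± 0.40, adjusted p = 0.143).

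Genes of growth metabolism fell together. Of 36 genes of ribosome biogenesis and MYC, 30 fell and 3 rose (median -1.32), and of 31 genes of amino acid, one-carbon and nucleotide metabolism 27 fell and 0 rose (median -1.28). Heatr1, a factor of early ribosome assembly, read 5824, 5045 and 5190 in ESC and 854, 1131 and 1069 in EB and fell by 2.40 ± 0.15 (adjusted p = 0.000142). The nucleolar protein gene Nolc1 fell by 1.87 ± 0.13 (adjusted p = 0.000169), and for RNA polymerase I, Polr1b fell by 1.62 ± 0.14 (adjusted p = 0.000367). Those that rose were Myc and 2 members of the MAX network that oppose it, Mxd1 and Mxd4. Myc did not pass without the EB B21, ESC B21, EB J1 or ESC J1 array or without line B21 or J1 (adjusted p = 0.0761 to 0.179). With line as a block its adjusted p was 0.0774. Mxd4 rose by 4.06 ± 0.40 (adjusted p = 0.000535). Mycn, the MYC gene of ESC, read 6489, 6577 and 6488 in ESC and 2600, 1255 and 3615 in EB. Mycn did not pass without line B21 (adjusted p = 0.0776). Slc7a3, an importer of basic amino acids, read 3111, 3361 and 3550 in ESC and 125, 218 and 107 in EB and fell by 4.54 ± 0.29 (adjusted p = 0.000142). In purine synthesis, Gart fell by 2.31 ± 0.20 (adjusted p = 0.00034) and Prps1 fell by 2.71 ± 0.21 (adjusted p = 0.000243). Asns, which makes asparagine, fell by 2.00 ± 0.16 (adjusted p = 0.000299).

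Few of the ribosome's own protein genes passed the test. Of 29 tested, 0 rose and 2 fell at an adjusted p under 0.05 from limma, with a median of -0.01. At an unadjusted p under 0.05, 4 fell and 0 rose. Without line B21, 1 fell. With quantile normalization 8 fell, and with median centring, which moves every change down, 28 did. The 10 genes with the smallest range over the 6 arrays among those above 500 on all of them were Rpl10a, Rps3, Rpl7a, Rps3a1, Rps18, Rplp0, Rps20, Rps4x, Rpl4 and Naca, and their log2 values varied by 0.04 to 0.07. They were picked for this small range. They read 17040 or more on every array, near the highest value of 25399.3, and whether the signal still follows the amount of RNA at that level was not tested. Of 45 genes of oxidative phosphorylation, 10 rose and 6 fell (22.2% and 13.3%), not above the 29.6% and 19.9% of all genes tested. These counts became 5 and 9 with quantile normalization. Without the ESC J1 array 6 rose, without line R1 5 and without line J1 3. Of 25 glycolysis genes, 2 rose and 5 fell. The share that fell was near the 19.9% of all genes tested, and the share that rose was below the 29.6%. The number that fell was 14 with median centring and 3 without line J1. Pfkp, the platelet-type phosphofructokinase, read 6381, 4646 and 3199 in ESC and 1222, 1018 and 417 in EB. Ppargc1a, a coactivator of mitochondrial biogenesis, rose by 2.64 ± 0.30 (adjusted p = 0.000856).

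Immediate early and stress genes rose in part. Of 34 tested, 17 rose and 4 fell (median 1.05). Fos, a subunit of AP-1, read 273, 816 and 971 in ESC and 6900, 9948 and 8913 in EB and rose by 3.82 ± 0.47 (adjusted p = 0.00115). Fosl2 and Junb, its relatives, rose by 5.01 ± 0.55 (adjusted p = 0.000788) and by 2.55 ± 0.37 (adjusted p = 0.00208). Egr1 rose by 1.15 ± 0.17 (adjusted p = 0.00212). Klf2, which belongs to the pluripotency network too, fell, at 7991, 6258 and 3980 in ESC and 1333, 2372 and 690.1 in EB. Klf2 did not pass without line B21 (adjusted p = 0.0814). Of 30 MHC class I and interferon genes, 8 rose and 7 fell (26.7% and 23.3%), near the 29.6% and 19.9% of all genes tested. The counts became 3 and 9 with quantile normalization. Without EB B21 or line R1, 3 rose, without ESC B21, ESC J1 or line J1, 5 rose, and without line B21, 1 rose. B2m, the invariant chain of MHC class I, read 1339, 2132 and 3350 in ESC and 11258, 8815 and 11848 in EB and rose by 2.31 ± 0.32 (adjusted p = 0.00182).

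The 3 lines followed the same course with local departures. Over the genes tested, the change in line B21 correlated with that in J1 at r = 0.868 and with that in R1 at r = 0.813, and J1 with R1 at r = 0.807. These are Pearson values across 13531 genes, which are not independent. The sign was the same in all 3 lines for 71.4% of the genes tested. A change of at least 2-fold in the same direction in all 3 lines was found for 2898 genes (21.4%), and at least 2-fold in opposite directions for 136 (1.01%). At least 2-fold rises numbered 3872 in B21 (28.6%), 3071 in J1 (22.7%) and 2816 in R1 (20.8%), and falls 2114 (15.6%), 1664 (12.3%) and 1745 (12.9%). With 1 array per line and stage, differences between lines have no replicate and were not tested.

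**Figure D4:**
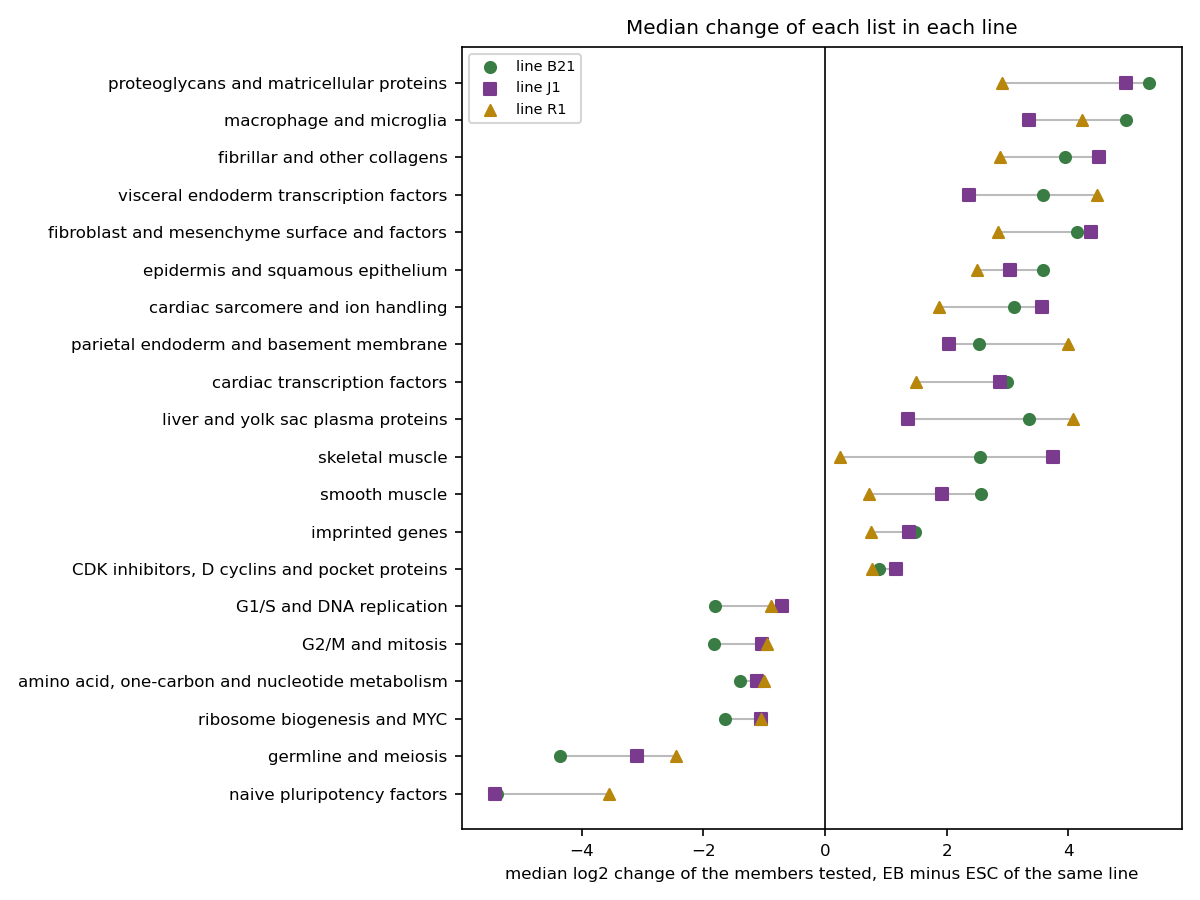
Median log2 change, EB minus ESC of the same line, of the members tested of each list, with circles for line B21, squares for J1 and triangles for R1. The 3 lines lie on the same side of 0 for each list shown. R1 is highest for the endoderm lists and lowest for muscle and matrix lists, with a skeletal muscle median of 0.24 against 3.75 in J1.

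The genes whose change varied most between lines were largely high in EB R1. Of the 12 with the widest range, Cubn, Gkn2, Srgn, Pga5, Aqp8, Trap1a, Sox17 and Spock1 were highest in EB R1. Gkn2, a secreted gastrokine, read 99.5, 58.6 and 70.4 in ESC and 4753, 92.4 and 15939 in EB. Aqp8, a water channel, read 106, 85.5 and 86.1 in ESC and 476, 72.3 and 8484 in EB, with EB J1 below every ESC array. Trap1a, a tumour rejection antigen gene on the X chromosome, read 5590, 3664 and 2206 in ESC and 390.4, 154 and 6214 in EB, so that EB R1 was above every ESC array while the other EB were low. Kit, a receptor of germ, blood and other stem cells, read 2744, 1257 and 690.2 in ESC and 1005, 374 and 6994 in EB. Several of the 12 differed in ESC as well. The standard deviation of log2 values in ESC was 1.51 for Cubn, 1.34 for Srgn and 1.06 for Pga5. For each of these ESC R1 was the lowest ESC array, so their change in R1 starts from a lower ESC value. It was 2.09 for Colec12, 1.43 for Rcan2 and 2.14 for Nt5e. Colec12, a scavenger receptor, read 26.1, 208 and 556 in ESC and 3640, 1595 and 1021 in EB, lowest in ESC B21 among the ESC and highest in EB B21 among the EB. Nt5e (CD73) read 13.4, 265 and 562 in ESC and 972, 304 and 288 in EB. Nxf3, an RNA export factor, was high in ESC B21 alone, at 687, 49.1 and 117 in ESC and 43.4, 176 and 44.6 in EB.

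**Figure D5:**
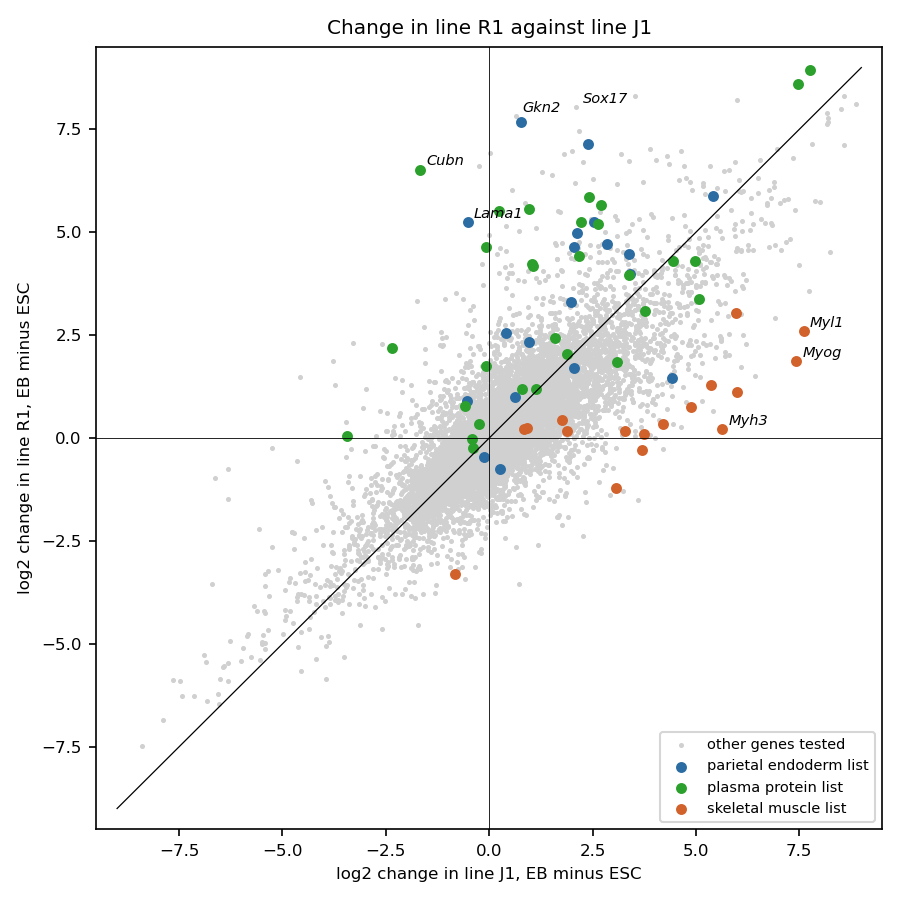
Log2 change, EB minus ESC, in line R1 (vertical) against line J1 (horizontal), a point per gene tested, with the diagonal of equal change. Blue points are the parietal endoderm list, green the plasma protein list, orange the skeletal muscle list and grey the other genes. Endoderm genes such as Cubn (6.52 in R1 and -1.67 in J1) and Lama1 (5.25 and -0.52) lie above the diagonal. Skeletal muscle genes such as Myog lie below it.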

How the data were processed

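The authors deposited 1 Affymetrix intensity per probe set and array, on a linear scale, from total RNA extracted with Trizol and labelled with biotin, per the labels' protocols. The summary over probes, the background correction and the scaling are not given in the sources used here. Of 45101 probe sets, 34958 carried 1 gene symbol, 932 several and 9211 none, and only the first were used. Each gene was represented by its probe set with the highest mean. Values under 32 were raised to 32 and log2 was taken. Genes above the 40th percentile of an array on at least 3 of the 6 arrays were tested with limma 3.58.1 in R 4.3.3 (lmFit, eBayes with trend) and adjusted by Benjamini-Hochberg over 13531 genes. A gene under this percentile on all ESC arrays was tested only if above it on all EB arrays. This favours rises in every list whose genes were dim in ESC. The fit was tested on simulated data. The 6 wild-type arrays alone entered it. The number of arrays limits the precision, and no label says that the cultures were separate beyond the series text, so that p-values measure the spread between these arrays. ESC and EB of a line are paired by the line in their titles, and deviations from the stage means correlated at -0.0534 in B21, -0.0888 in J1 and -0.0369 in R1. A fit with line as a block was an alternative, with other floors, filters, scalings, probe set choices and left-out arrays. Leaving out lines was added after the data had been seen. Genes were named as the largest changes without overlap, the list members with the smallest p, those against their list's direction, some that did not pass, and those that varied most between lines or least between arrays. Others were chosen after their values were seen. The members and lists were chosen with earlier results of these data known. Promoter sequences are RefSeq's.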

Additional observations from a re-analysis of the deposited data

How the results depend on the processing

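Of 200 named genes past the threshold, 174 stayed past it in the same direction under all alternatives that kept every array, 181 without each single array and 166 without each line. In all, 199 kept their direction under all of them, the exception being Hoxa5, which changed by 0.79 as the mean over its probe sets. The fit with line as a block gave 3488 genes higher and 2229 lower, and of the lists' counts none moved by over 1.5 times under it. Besides Lin9, Tfdp2 and Myc, it ended the calls for Thbs1, Colec12, Rcan2 and Srgn. Quantile normalization gave 4074 genes lower, and median centring 2492 higher and 4726 lower. With single arrays or lines left out, between 2265 and 3930 genes were higher and between 1360 and 2500 lower. Of 53 lists, 27 kept their count within 1.5 times under every alternative. The counts below are of members higher in EB unless marked lower, and the cause of a shift was not tested. With no filter, the counts were 2 for neurons, 3 for simple epithelium, 9 for parietal endoderm, 2 for skeletal muscle, 5 for endothelium, 5 for Notch and Hedgehog, 19 for G1/S (lower), 25 for G2/M (lower) and 4 for MHC and interferon. With a filter at the 60th percentile, the counts were 2 for neurons, 12 for cardiac sarcomere, 4 for skeletal muscle, 5 for endothelium, 3 for cartilage and bone and 5 for Hox genes. With all 14 arrays, the counts were 3 for simple epithelium, 4 for skeletal muscle and 4 for ribosomal proteins (lower). With a floor of 64, the counts were 4 for skeletal muscle. With median centring, the counts were 1 for erythroid, 6 for Notch and Hedgehog, 27 for Polycomb and BAF (lower), 14 for glycolysis (lower), 2 for oxidative phosphorylation, 16 for cholesterol (lower), 28 for ribosomal proteins (lower), 13 for lysosome, 4 for MHC and interferon and 2 for reference genes. With quantile normalization, the counts were 5 for oxidative phosphorylation, 8 for ribosomal proteins (lower) and 3 for MHC and interferon. With the mean over probe sets, the counts were 5 for cholesterol (lower), 6 for ribosomal proteins (lower) and 3 for reference genes. With single arrays or lines left out, the counts ran from 11 to 16 for germline (lower), 1 to 4 for neurons, 3 to 7 for simple epithelium, 8 to 14 for visceral endoderm factors, 6 to 17 for parietal endoderm, 11 to 27 for cardiac sarcomere, 5 to 14 for smooth muscle and 1 to 15 for skeletal muscle. They ran from 4 to 10 for endothelium, 1 to 2 for erythroid, 12 to 22 for Wnt signalling, 4 to 10 for Notch and Hedgehog, 18 to 40 for G1/S (lower), 16 to 46 for G2/M (lower), 10 to 17 for CDK inhibitors and 8 to 14 for p53 targets. For the other lists they ran from 10 to 16 for Polycomb and BAF (lower), 3 to 7 for glycolysis (lower), 3 to 10 for oxidative phosphorylation, 4 to 10 for cholesterol (lower), 1 to 3 for ribosomal proteins (lower), 1 to 7 for MHC and interferon and 2 to 5 for reference genes. The number of arrays and the floor limit what can be read from dim genes.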

Other observations

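Adhesion molecules changed on a broad front. Of 39 cadherins and other adhesion genes tested, 23 rose and 2 fell, with a median of 1.80. These were 59.0% and 5.13%, against 29.6% and 19.9% of all genes tested. Ncam1, the neural cell adhesion molecule, read 42.1, 89.2 and 58.9 in ESC and 1289, 2016 and 920.0 in EB and rose by 4.47 ± 0.39 (adjusted p = 0.00035) by limma. Vcam1, which binds integrins of blood cells and is also found in mesoderm, read 10.9, 10.7 and 6.7 in ESC and 1264, 1642 and 495 in EB, and the common integrin chain Itgb1 rose by 2.01 ± 0.20 (adjusted p = 0.000545). Of 28 p53 targets and growth arrest genes, 13 rose and 2 fell (46.4% and 7.14%, against 29.6% and 19.9% of all genes tested). Without line J1, 8 rose. Gas6, a ligand of receptors that clear dying cells, read 691, 804 and 858 in ESC and 13351, 7020 and 5074 in EB and rose by 3.32 ± 0.34 (adjusted p = 0.000618). Of 12 neural crest and glia genes, 4 rose (Snai2, Cryab, Twist1 and Tfap2a) and 2 fell (33.3% and 16.7%, near the 29.6% and 19.9% of all genes tested). Tfap2a did not pass without line J1 (adjusted p = 0.0859). Of 15 cilium genes, 3 fell and 1 rose. The share that fell was near the 19.9% of all genes tested, and the share that rose was below the 29.6%. Rfx2, a regulator of cilium genes, read 547, 464 and 246 in ESC and 76.5, 39.7 and 50.2 in EB. Of 8 genes of mast cells, megakaryocytes and lymphoid cells, 2 rose (Pf4 and Ppbp) and 2 fell. These shares were near the 29.6% and 19.9% of all genes tested.

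Of 16 genes often taken as references, 5 rose and 2 fell (31.2% and 12.5%), against 29.6% and 19.9% of all genes tested, and 2 rose without line B21 or line J1. Hprt, a purine salvage enzyme, read 6041, 6928 and 6884 in ESC and 3565, 3777 and 2795 in EB and fell by 0.98 ± 0.14 (adjusted p = 0.00203). Of 29 genes of cholesterol and fatty acid synthesis, 8 fell and 4 rose (27.6% and 13.8%, against 19.9% and 29.6% of all genes tested). Without line J1, 4 fell. Dhcr7, the last enzyme of cholesterol synthesis, read 1893, 1798 and 1715 in ESC and 749, 790.3 and 666 in EB and fell by 1.30 ± 0.15 (adjusted p = 0.000967). Abca1, which exports cholesterol, read 332, 289.6 and 274 in ESC and 3746, 1880 and 3487 in EB and rose by 3.29 ± 0.29 (adjusted p = 0.000367).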
